A study of Mus musculus with 12 samples.

Results

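Ifi27l2a, Lgals3bp and Cmtr1 are 3 of the 18193 genes that were read from cultures of mouse cerebellar granule neurons (CGNs). They were picked for lying lower in cultures that lack the interferon-β gene than in cultures that have it. They were chosen by their log2 expression values, from listed interferon-inducible genes, by setting the arrays of Ifnb-/- CGNs against those of Ifnb+/+ CGNs, both without treatment and after recombinant interferon-β (rIFN-β). In each of them every Ifnb-/- array lay below every Ifnb+/+ array in both settings. The genotype differences given here are therefore a description of what chose these genes, and no test is attached to them. Over all 18193 genes, 166 (0.912%) met the same condition in both settings, 3302 (18.1%) met it in untreated cultures and 631 (3.47%) met it with rIFN-β, so that the condition on untreated cultures alone was met by many genes.

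Interferon-β is a type I interferon that cells secrete and sense through the receptor chains IFNAR1 and IFNAR2. The receptor's kinases JAK1 and TYK2 activate transcription factors, which join IRF9 in a complex that binds the interferon-stimulated response element in the promoters of interferon-stimulated genes. Besides the surge after infection, cells can secrete small amounts of interferon-β in the resting state, and this tonic signal is known to hold part of these genes at a basal level.

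RNA was measured in 12 CGN cultures of B10.RIII mice, 1 Affymetrix 430 2.0 array per culture, with 3 arrays in each of 4 groups. Both genotypes, Ifnb+/+ and Ifnb-/-, were left untreated or given rIFN-β. Pups were 7 days old, all cultures were lysed at 3 days, and treated cultures had received 100 U/ml rIFN-β for 24 hr. The Ifnb-/- line carries a germline deletion, so that every cell of its cultures lacks the gene, and the methods allow wild-type animals to have been Ifnb+/- as well as Ifnb+/+ littermates. Whether the 3 cultures of a group came from separate litters is not stated, so that each p-value speaks for the variation among these 12 cultures.

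Arrays of 1 group correlated with each other at Pearson's r of 0.971 to 0.998 across genes, and array medians lay between 4.33 and 4.42 on the log2 scale. None of the 13 measured granule neuron markers was below the array median on all 12 arrays. The same held for 10 astrocyte and 6 fibroblast markers, whereas 1 of 8 oligodendrocyte, 6 of 24 microglial and 7 of 9 endothelial markers were below it on all 12. The spread between replicates differed among groups: the median SD of a gene was 0.201 in untreated Ifnb+/+, 0.0872 in untreated Ifnb-/-, 0.171 in treated Ifnb+/+ and 0.154 in treated Ifnb-/-. Ifnb1, the deleted gene, had log2 means of 2.72, 2.70, 2.66 and 2.95 in these groups, all below the array medians, so that its probe set does not check the genotype labels.

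Ifi27l2a encodes a small hydrophobic protein of the interferon-induced ISG12 family. It lies at chr12:103433873-103443680 (GRCm38.p6), and 1 probe set reads it. The log2 RMA values of Ifi27l2a were 5.79, 5.96 and 5.55 in untreated Ifnb+/+ and 4.14, 4.00 and 4.46 in untreated Ifnb-/-. With rIFN-β they were 5.69, 5.84 and 5.63 in Ifnb+/+ and 4.32, 4.02 and 4.56 in Ifnb-/-. All 6 Ifnb+/+ arrays lay above all 6 Ifnb-/- arrays, whatever the treatment, and within a genotype the treated and untreated arrays overlapped. In these bulk cultures, fewer cells of a type and less RNA per cell cannot be told apart.

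The difference between genotypes for Ifi27l2a was −1.57 (standard error 0.17) on the log2 scale without treatment, a level 2.96-fold higher in Ifnb+/+, and −1.42 (standard error 0.17) with rIFN-β, 2.67-fold higher in Ifnb+/+. The lowest Ifnb+/+ array exceeded the highest Ifnb-/- array by 1.09 in untreated and by 1.07 in treated cultures. The Ifnb-/- arrays of Ifi27l2a lay around the array medians, and the Ifnb+/+ arrays above them.

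rIFN-β did not change Ifi27l2a detectably in either genotype. This contrast was not used to pick the genes, although it uses the same arrays. The effect of rIFN-β on Ifi27l2a was −0.05 in Ifnb+/+ CGNs (95% interval −0.41 to 0.31, limma adjusted p = 0.906) and 0.10 in Ifnb-/- CGNs (95% interval −0.26 to 0.46, limma adjusted p = 0.799). Ifnb-/- CGNs treated with rIFN-β therefore read 4.30 ± 0.27 (SD, n = 3) for Ifi27l2a, against 5.77 ± 0.21 in untreated Ifnb+/+ CGNs.

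**Figure D1:**
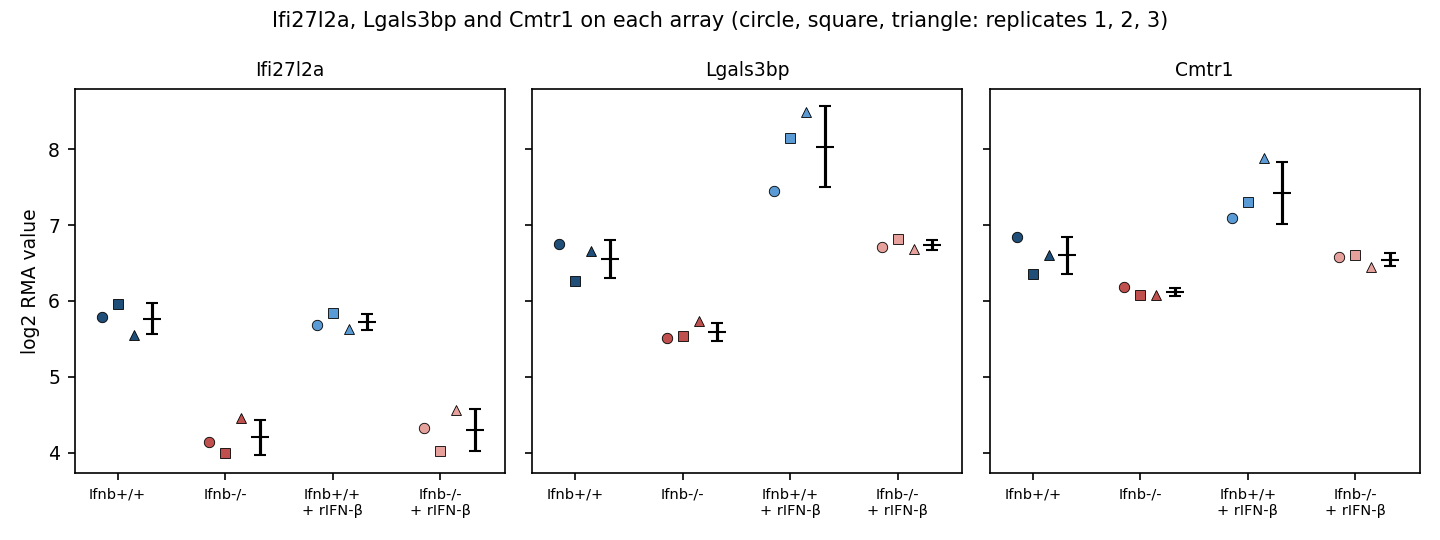
Log2 RMA values of Ifi27l2a, Lgals3bp and Cmtr1 on the 12 arrays, by group, with a shared vertical axis. Circles, squares and triangles are replicates 1, 2 and 3, and the black marks are the group mean ± SD (n = 3). Ifi27l2a stays between 5.55 and 5.96 in Ifnb+/+ and between 4.00 and 4.56 in Ifnb-/- with or without rIFN-β, while the Lgals3bp arrays with rIFN-β lie above the untreated arrays of the same genotype.

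Lgals3bp encodes a secreted glycoprotein that binds galectin-3. It lies on the minus strand at chr11:118392747-118401959 (GRCm38.p6). Its promoter is shown because the gene responded to rIFN-β. The RefSeq sequence holds 250 bases before and 50 after the gene's start, at chr11:118401910-118402209, and a match to AANNGAAA, the core that interferon regulatory factors recognize, is in capitals.
Lgals3bp: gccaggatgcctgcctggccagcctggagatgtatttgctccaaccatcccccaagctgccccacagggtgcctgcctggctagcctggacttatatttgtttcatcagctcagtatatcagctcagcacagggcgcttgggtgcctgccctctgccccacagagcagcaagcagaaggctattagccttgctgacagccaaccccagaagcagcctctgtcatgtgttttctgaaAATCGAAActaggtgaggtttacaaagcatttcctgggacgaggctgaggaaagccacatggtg

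The match spans −14 to −7 from the start, close to the start, and it is the only match in this window on either strand. AANNGAAA occurs in 23.9% of the 32851 mouse promoters of this length, so that a match is common. The window holds no GAAANNGAAA, the longer interferon-stimulated response element, which 3.44% of promoters hold, and no TTCNNNGAA, the gamma-activated site, which 8.3% hold, on either strand. A match of letters is a description and not a measured binding site.

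The log2 RMA values of Lgals3bp were 6.75, 6.27 and 6.66 in untreated Ifnb+/+ and 5.51, 5.53 and 5.73 in untreated Ifnb-/-. With rIFN-β they were 7.45, 8.15 and 8.50 in Ifnb+/+ and 6.71, 6.82 and 6.68 in Ifnb-/-. Treated Ifnb+/+ arrays were the highest, untreated Ifnb-/- arrays the lowest, and treated Ifnb-/- arrays overlapped untreated Ifnb+/+ arrays.

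Lgals3bp rose with rIFN-β in both genotypes. The effect was 1.47 on the log2 scale in Ifnb+/+ (2.78-fold, standard error 0.22, limma adjusted p = 0.00292) and 1.15 in Ifnb-/- (2.22-fold, standard error 0.22, limma adjusted p = 0.0238). Over all genes 324 (1.78%) were called higher with rIFN-β in Ifnb+/+ and 169 (0.929%) in Ifnb-/-. The call in Ifnb-/- was lost on leaving out any 1 of the 6 Ifnb-/- arrays, with effects of 1.11 to 1.22 and adjusted p-values of 0.0706 to 0.126. The call in Ifnb+/+ held without each array in turn (adjusted p of 5.98e-05 to 0.0193), but was lost when the 2 Ifnb+/+ groups were fitted alone (adjusted p = 0.077).

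The difference between genotypes for Lgals3bp was −0.97 (standard error 0.22) without treatment and −1.29 (standard error 0.22) with rIFN-β, corresponding to levels 1.95-fold and 2.45-fold higher in Ifnb+/+. Treated Ifnb-/- CGNs read 6.74 ± 0.07 for Lgals3bp, and untreated Ifnb+/+ CGNs read 6.56 ± 0.25 (SD, n = 3 each). Thus the treated knockout and the untreated wild type overlapped in Lgals3bp, while their means differed by −1.47 in Ifi27l2a.

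Cmtr1 encodes the enzyme that methylates the ribose of the first transcribed nucleotide next to the mRNA cap. It lies on the plus strand at chr17:29660595-29705979 (GRCm38.p6). Its RefSeq promoter, at chr17:29660345-29660644, is shown for comparison with that of Lgals3bp, with TTTCCCTT, a match to AANNGAAA on the opposite strand, in capitals.
Cmtr1: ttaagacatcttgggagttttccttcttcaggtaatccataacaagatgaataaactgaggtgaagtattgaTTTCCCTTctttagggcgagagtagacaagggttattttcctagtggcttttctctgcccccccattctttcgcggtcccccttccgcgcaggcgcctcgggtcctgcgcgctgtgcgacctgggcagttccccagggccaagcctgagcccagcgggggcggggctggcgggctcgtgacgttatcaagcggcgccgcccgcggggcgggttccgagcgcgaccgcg

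The Cmtr1 match spans −178 to −171 from the start, farther upstream than that of Lgals3bp. The Cmtr1 window, like that of Lgals3bp, holds neither GAAANNGAAA nor TTCNNNGAA.

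The log2 RMA values of Cmtr1, read from the brightest of its 4 probe sets, were 6.84, 6.36 and 6.61 in untreated Ifnb+/+ and 6.18, 6.09 and 6.08 in untreated Ifnb-/-. With rIFN-β they were 7.10, 7.30 and 7.88 in Ifnb+/+ and 6.58, 6.60 and 6.45 in Ifnb-/-. Treated Ifnb-/- arrays lay within the range of the untreated Ifnb+/+ arrays, and both Ifnb-/- groups were tighter than the Ifnb+/+ groups, with SDs of 0.06 and 0.08 against 0.24 and 0.41.

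Cmtr1 rose with rIFN-β in Ifnb+/+ CGNs, by 0.83 on the log2 scale (1.78-fold, standard error 0.18, limma adjusted p = 0.0298). In Ifnb-/- CGNs the effect was 0.43 (1.35-fold, standard error 0.18, limma adjusted p = 0.3), which did not pass, although all 3 treated Ifnb-/- arrays lay above all 3 untreated ones. That the call was made in Ifnb+/+ alone does not show that the genotypes respond differently. The difference of the effects, Ifnb-/- minus Ifnb+/+, was −0.40 (standard error 0.26) for Cmtr1, −0.33 (standard error 0.31) for Lgals3bp and 0.15 (standard error 0.23) for Ifi27l2a, and it is given without a test because it equals the difference of the genotype contrasts that picked the genes.

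The Cmtr1 call in Ifnb+/+ was lost without Ifnb+/+ replicate 3, without any 1 untreated Ifnb-/- array, without treated Ifnb+/+ replicate 2 or 3, or without treated Ifnb-/- replicate 1, with adjusted p-values of 0.0502 to 0.109. It was also lost when the 2 Ifnb+/+ groups were fitted alone (adjusted p = 0.233), whereas the effect of 0.43 in Ifnb-/- passed when the 2 Ifnb-/- groups were fitted alone (adjusted p = 0.0295).

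The difference between genotypes for Cmtr1 was −0.48 (standard error 0.18) without treatment and −0.88 (standard error 0.18) with rIFN-β, corresponding to levels 1.40-fold and 1.84-fold higher in Ifnb+/+. The lowest untreated Ifnb+/+ array exceeded the highest untreated Ifnb-/- array by 0.18, a smaller gap than in Ifi27l2a (1.09) or Lgals3bp (0.54). Among the other listed interferon genes, and not among all genes, Zbp1, Rtp4 and Tap1 stood closest outside the condition. In these the lowest treated Ifnb+/+ array minus the highest treated Ifnb-/- array came to −0.0033, −0.021 and −0.034.

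The other 3 probe sets of Cmtr1 were not used in choosing it. The next brightest read 6.75, 6.08 and 6.50 in untreated Ifnb+/+ against 5.98, 5.91 and 6.05 in untreated Ifnb-/-, and 6.97, 7.36 and 7.87 against 6.48, 6.61 and 6.50 with rIFN-β, so that its groups did not overlap either. The third by brightness read 6.29, 5.77 and 6.17 against 5.91, 5.92 and 5.98 without treatment, where the genotypes overlapped, and 6.51, 6.72 and 6.74 against 6.21, 6.17 and 6.14 with rIFN-β, where they did not. The dimmest overlapped in both settings, with 5.04, 4.41 and 4.80 against 4.34, 4.42 and 4.68 untreated and 5.09, 5.42 and 5.49 against 4.72, 5.004 and 5.16 treated. The separation of the untreated genotypes in Cmtr1 thus held for 2 of its 4 probe sets, and with the mean of the 4 probe sets Cmtr1 no longer met the condition.

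**Figure D2:**
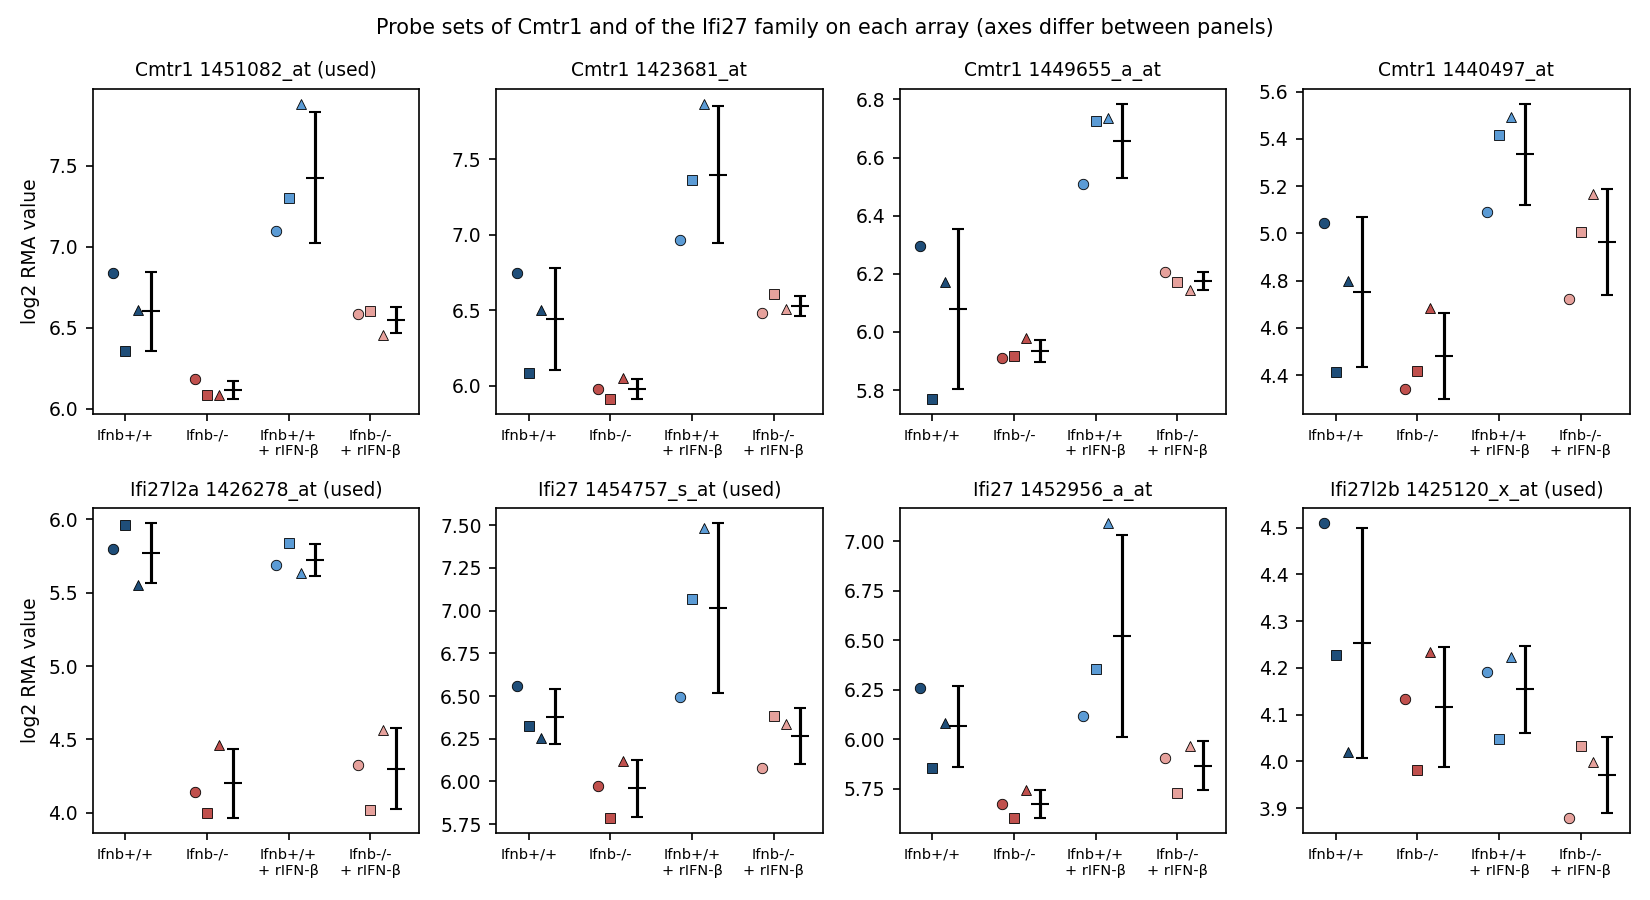
Log2 RMA values of the 4 Cmtr1 probe sets (top row) and of the probe sets of Ifi27l2a, Ifi27 and Ifi27l2b (bottom row) on the 12 arrays. Circles, squares and triangles are replicates 1, 2 and 3, black marks are the group mean ± SD (n = 3), and vertical axes differ between panels. Untreated groups overlap in the third and the fourth Cmtr1 panel, and the treated Ifnb+/+ arrays reach 7.49 in Ifi27, whereas those of Ifi27l2a stay within 5.63 to 5.84.

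The ISG12 family holds a pair of further measured genes, which were compared with Ifi27l2a because they are its neighbours. Ifi27, at chr12:103434189-103440245, lies within the annotated span of Ifi27l2a, and Ifi27l2b follows at chr12:103450898-103457223 (GRCm38.p6). Ifi27 read 6.56, 6.32 and 6.26 in untreated Ifnb+/+, 5.97, 5.79 and 6.12 in untreated Ifnb-/-, 6.50, 7.07 and 7.49 in treated Ifnb+/+ and 6.08, 6.38 and 6.33 in treated Ifnb-/-. Ifi27 thus also had every Ifnb-/- array below every Ifnb+/+ array in both settings, with genotype differences of −0.42 untreated and −0.75 treated, each smaller than that of Ifi27l2a. The effect of rIFN-β on Ifi27 was 0.64 in Ifnb+/+ (standard error 0.21, limma adjusted p = 0.126) and 0.30 in Ifnb-/- (limma adjusted p = 0.513). Ifi27l2b read 4.25 ± 0.25 in untreated Ifnb+/+ and 4.12 ± 0.13 in untreated Ifnb-/- (SD, n = 3), where the groups overlapped. With rIFN-β Ifi27l2b read 4.19, 4.05 and 4.22 in Ifnb+/+ and 3.88, 4.03 and 4.00 in Ifnb-/-, where they did not overlap, by a margin of 0.014. The Ifi27l2b means of all groups, 3.97 to 4.25, lay below the array medians of 4.33 to 4.42. Whether the probes of Ifi27l2a, Ifi27 or Ifi27l2b also bind transcripts of the other genes of the family was not tested.

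The response of Ifi27l2a to rIFN-β was set beside that of 53 measured interferon-stimulated genes, none of them Ifi27l2a, Lgals3bp or Cmtr1. Of the 53, 45 rose and none fell in Ifnb+/+, with a median log2 difference of 3.42, against −0.03 over all genes. At an unadjusted limma p under 0.05, 51 were higher and none lower, against 1602 and 2017 of all 18193 genes. In Ifnb-/-, 36 rose and none fell, with a median of 2.53, against 0.07 over all genes, of which 0.742% were called lower. There 43 were higher and none lower at an unadjusted limma p under 0.05, against 1667 and 990 of all genes. All of the 36 genes called in Ifnb-/- were among the 45. Effects in Ifnb+/+ reached from 0.19 in Uba7 to 7.72 in Cxcl10, a chemokine gene, so that each of the 53 genes had a larger effect than the −0.05 of Ifi27l2a. In Lgals3bp 11 and in Cmtr1 5 of the 53 had a smaller effect than these genes in Ifnb+/+, and in Ifnb-/- the counts of the 53 with a smaller effect were 14 for Lgals3bp, 6 for Cmtr1 and 2 for Ifi27l2a. All 3 genes thus stood in the lower part of the list by the size of their response.

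The condition on genotype was met in both settings by 7 of the 53 interferon-stimulated genes (13.2%), against 0.912% of all genes. These were Oas1a, Oasl1, Dhx58, Bst2, Cmpk2, Slfn2 and Nmi. Ifi27l2a, Lgals3bp and Cmtr1 were therefore not alone among interferon-inducible genes in meeting it. The gap between genotypes was narrow in treated Cmpk2 (0.044) and in untreated Oasl1 (0.052). The other probe sets of Dhx58 overlapped in both settings, and the other one of Cmpk2 overlapped without treatment. Bst2, which encodes the antiviral membrane protein tetherin, read 5.68, 5.60 and 5.67 in untreated Ifnb+/+ and 4.66, 4.77 and 4.81 in untreated Ifnb-/-, and with rIFN-β 6.19, 7.12 and 7.99 in Ifnb+/+ and 5.77, 5.90 and 5.74 in Ifnb-/-. In Bst2, as in Lgals3bp and Cmtr1, treated Ifnb-/- arrays came close to the untreated Ifnb+/+ arrays, although they did not overlap. Over the list, the median genotype difference was −0.34 untreated and −1.28 with rIFN-β, against −0.09 and 0.03 over all genes. Counted from the most negative, the untreated differences of Ifi27l2a, Lgals3bp and Cmtr1 ranked 3, 44 and 1126 among the 18193 genes, and those with rIFN-β ranked 50, 74 and 179.

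**Figure D3:**
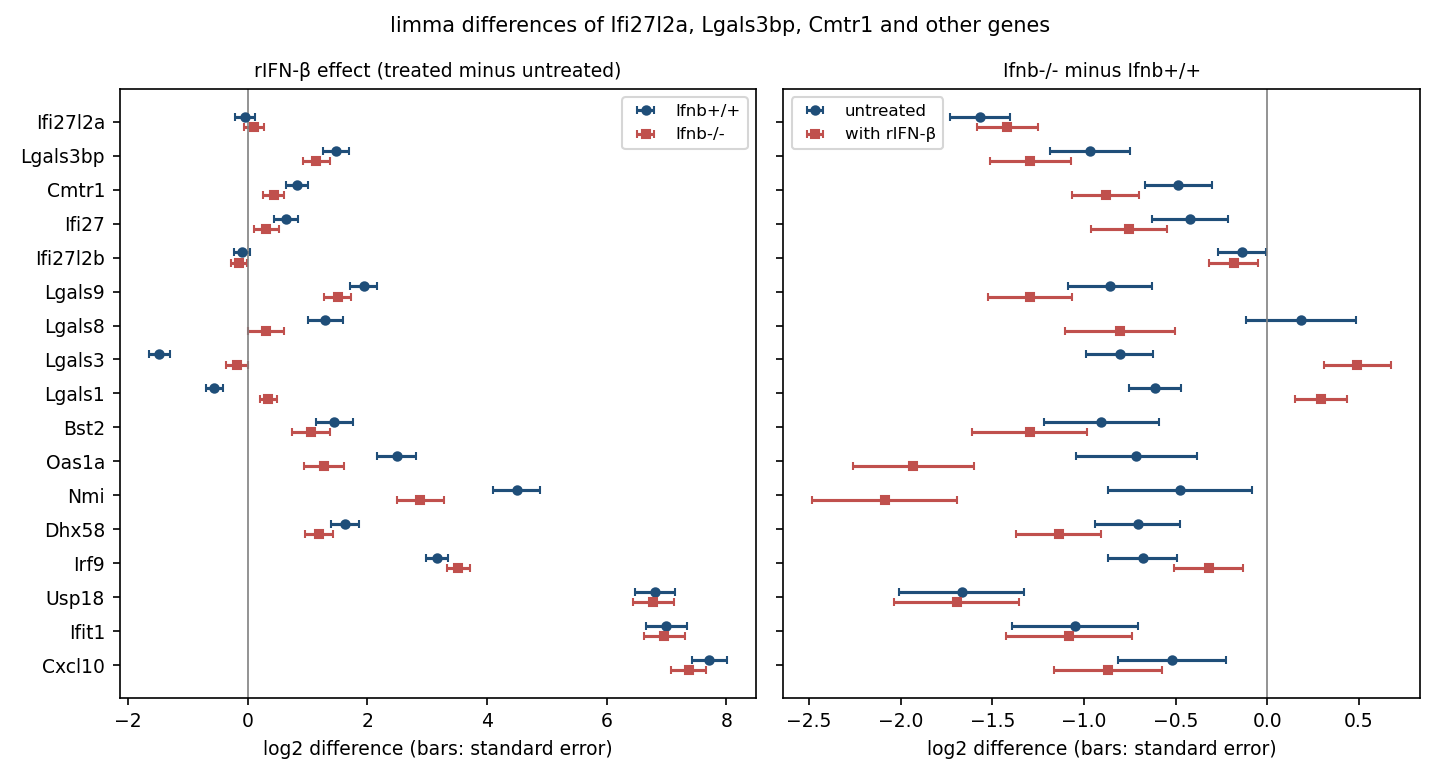
Log2 differences with rIFN-β in each genotype (left) and between genotypes without and with rIFN-β (right) for Ifi27l2a, Lgals3bp, Cmtr1 and other named genes. Points are limma estimates from 3 arrays per group and bars are standard errors. Ifi27l2a lies close to 0 on the left and near −1.5 on the right, and Usp18, with rIFN-β effects of 6.81 and 6.78, has genotype differences of similar size.

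Of 14 measured genes of interferon sensing and its feedback, 8 rose with rIFN-β in Ifnb+/+ and 7 in Ifnb-/-, and none fell in either. Of all genes, 1.78% were called higher and 1.36% lower in Ifnb+/+, and 0.929% and 0.742% in Ifnb-/-. The receptor gene Ifnar1 read 7.40 ± 0.04 in untreated Ifnb+/+ and 7.39 ± 0.03 in untreated Ifnb-/- (SD, n = 3). Read from the brightest probe sets, 3 of the 14 (21.4%) met the genotype condition in both settings, against 0.912% of all genes. These were Ifnar2, which encodes the other chain, Irf8, a transcription factor gene of the interferon regulatory factor family, and Usp18. The protein encoded by Usp18 dampens signaling at IFNAR2. With rIFN-β, the other probe sets of Ifnar2 and Irf8 overlapped between genotypes. Usp18 read 5.09, 3.52 and 4.63 in untreated Ifnb+/+ and 2.69, 2.62 and 2.94 in untreated Ifnb-/-, and with rIFN-β 10.67, 11.22 and 11.79 against 9.57, 9.54 and 9.48. Its genotype differences of −1.67 and −1.69 were the nearest in size to those of Ifi27l2a among the named genes of this list. In contrast to Ifi27l2a, Usp18 rose with rIFN-β in both genotypes, by 6.81 (limma adjusted p = 8.17e-07) and 6.78 (limma adjusted p = 8.57e-07). Irf9, the DNA-binding part of the interferon complex, rose by 3.16 in Ifnb+/+ and 3.52 in Ifnb-/- (limma adjusted p = 1.77e-06 and 1.03e-06).

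Lgals3bp was set beside the galectins, the family its protein binds. Of 7 measured galectin genes, Lgals9 and Lgals8 rose and Lgals3 fell with rIFN-β in Ifnb+/+, and Lgals9 rose in Ifnb-/-. In Ifnb+/+ 1.36% of all genes were called lower with rIFN-β. Lgals9 read 6.53, 6.22 and 6.31 in untreated Ifnb+/+, 5.57, 5.41 and 5.50 in untreated Ifnb-/-, 7.68, 8.30 and 8.89 in treated Ifnb+/+ and 6.99, 7.09 and 6.91 in treated Ifnb-/-. This is the same order of groups as in Lgals3bp, with rIFN-β effects of 1.94 (limma adjusted p = 0.000509) and 1.50 (limma adjusted p = 0.00612). Lgals3, which encodes the galectin that Lgals3bp is named for, fell by 1.48 in Ifnb+/+ (limma adjusted p = 0.000766) and had an effect of −0.18 in Ifnb-/- (limma adjusted p = 0.657).

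Cmtr1 was set beside 14 measured genes of mRNA cap formation, binding and removal. Dcp2, which encodes a decapping enzyme, rose by 1.69 in Ifnb+/+ (limma adjusted p = 0.0136), and no other gene of the 14 was called in either direction in Ifnb+/+. In Ifnb-/- none was called in either direction by limma, and the median was −0.05. At unadjusted limma p-values under 0.05, 2 were lower and 0 higher, against 990 and 1667 of all 18193 genes. Cmtr2, which encodes the methyltransferase of the next nucleotide, had effects of −0.23 in Ifnb+/+ and −0.10 in Ifnb-/- (limma adjusted p = 0.373 and 0.744). None of the 14 had all Ifnb-/- arrays below all Ifnb+/+ arrays in both settings. Of all genes 0.912% did, so that a count of 0 among 14 genes does not set them apart.

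Across the 12 arrays, Lgals3bp and Cmtr1 correlated with each other at Pearson's r = 0.967, and Ifi27l2a with them at 0.607 and 0.618. These correlations describe 4 groups of 3 arrays and carry no test, since the arrays of a group share genotype and treatment. The genes most like Lgals3bp were Enc1 (r = 0.985), Lgals9 (0.984), Bst2 (0.979), Mcm6 (0.976) and Oas1a (0.976), and those most like Cmtr1 were Lgals3bp, Enc1 (0.966), Rnf114 (0.965), Bst2 (0.964) and Oas1a (0.963). Those most like Ifi27l2a were Lrrc39 (0.957), Ndufs5 (0.955), Ccl5 (0.942), Tmem69 (0.922) and Rragd (0.904), of which Ndufs5, Tmem69 and Rragd lie on chromosome 4, the chromosome of the deleted Ifnb1 gene. None of the 5 genes most like Lgals3bp or Cmtr1 lies there, and Ifi27l2a itself is on chromosome 12. The share of all genes on chromosome 4 is not given here, and whether this location has a part in the likeness was not tested.

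None of the 5 genes most like Ifi27l2a was called with rIFN-β in either genotype, which follows in part from their likeness to a gene without a called response. Lrrc39 lay below the array median on every array, with group means from 2.06 to 2.38. Its other probe set overlapped between genotypes in both settings. Ccl5, which encodes a chemokine, read 6.04, 6.39 and 6.09 in untreated Ifnb+/+, 5.01, 5.06 and 5.10 in untreated Ifnb-/-, 6.66, 6.77 and 6.57 in treated Ifnb+/+ and 5.18, 4.49 and 5.58 in treated Ifnb-/-. Its rIFN-β effects were 0.50 in Ifnb+/+ (limma adjusted p = 0.229) and 0.03 in Ifnb-/- (limma adjusted p = 0.964). Ndufs5, a gene of mitochondrial complex I, had effects of 0.25 and 0.29 (limma adjusted p = 0.321 and 0.341).

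Among treated arrays, Lgals3bp and Cmtr1 were ordered like the other interferon-stimulated genes, and Ifi27l2a was not. The median of the 53 interferon-stimulated genes, relative to their means in untreated Ifnb+/+, was 2.33, 3.39 and 4.34 on the treated Ifnb+/+ arrays and 1.72, 2.52 and 1.62 on the treated Ifnb-/- arrays, in replicate order. Within each treated group the arrays of Lgals3bp (7.45, 8.15 and 8.50, then 6.71, 6.82 and 6.68) and of Cmtr1 stood in the same order as these medians. Ifi27l2a was highest on the middle array of the treated Ifnb+/+ group and lowest on the strongest array of the treated Ifnb-/- group. The summed level of 10 astrocyte markers stood in the same order as the medians, at log2 values of 12.12, 12.83 and 13.36 in treated Ifnb+/+ and 12.33, 13.73 and 12.23 in treated Ifnb-/-. Its part in the responses of Lgals3bp and Cmtr1 was not tested.

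**Figure D4:**
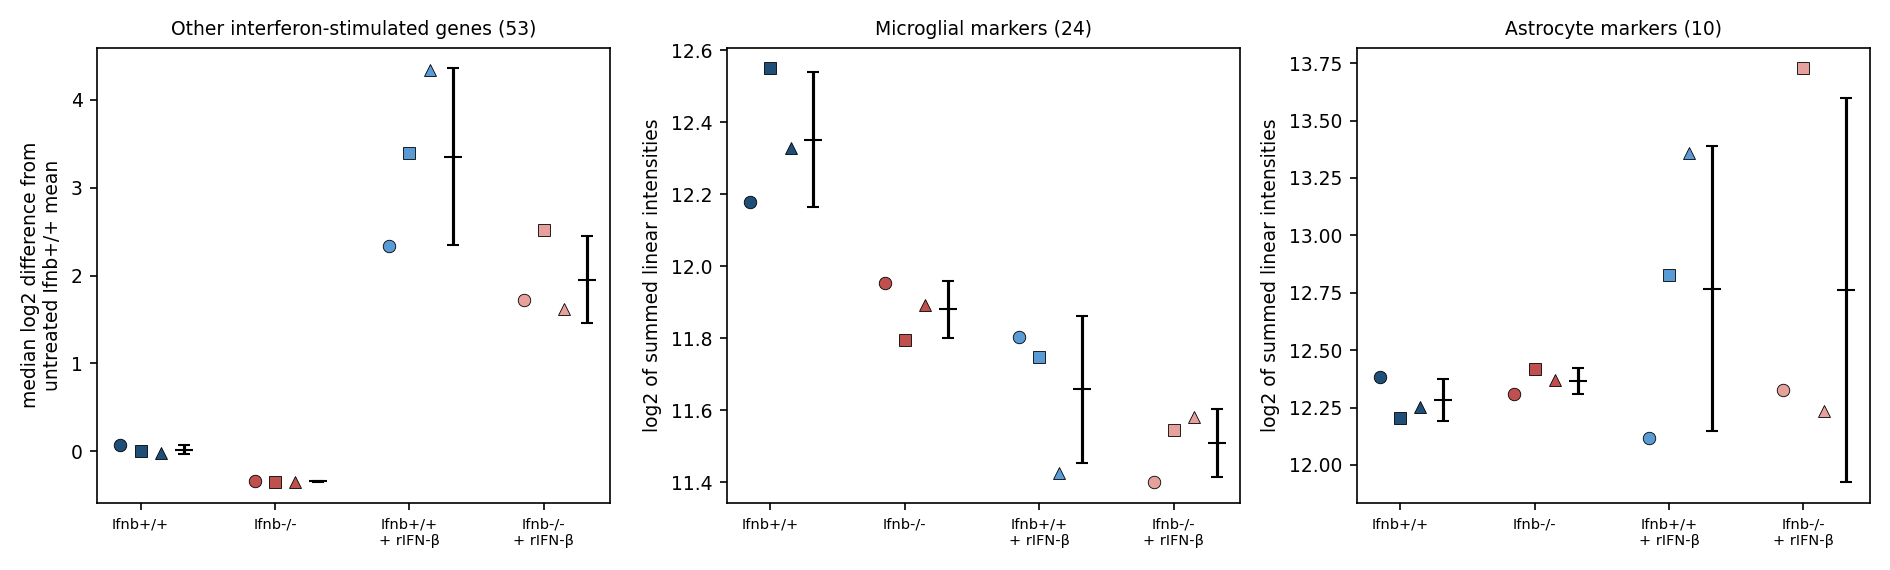
Median log2 difference of 53 interferon-stimulated genes from untreated Ifnb+/+ (left) and log2 of the summed linear intensities of 24 microglial (middle) and 10 astrocyte markers (right) on the 12 arrays. Circles, squares and triangles are replicates 1, 2 and 3, and black marks are the group mean ± SD (n = 3). The interferon medians reach 4.34 in treated Ifnb+/+ and 2.52 in treated Ifnb-/-, the microglial sums are highest in untreated Ifnb+/+, and the astrocyte sums spread most in the treated groups.

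Microglial and endothelial markers were lower in untreated Ifnb-/- cultures, as Ifi27l2a, Lgals3bp and Cmtr1 were. The untreated difference was negative in 23 of 24 microglial and 9 of 9 endothelial markers, against 11916 of all 18193 genes. The log2 of the summed endothelial level was 6.88 to 7.12 in untreated Ifnb+/+ and 6.72 to 6.82 in untreated Ifnb-/-. Of the 9 endothelial markers, 7 were below the array median on all 12 arrays. Of the 24 microglial markers, 2 were called lower in untreated Ifnb-/- by limma, Trem2 (−1.03, adjusted p = 0.0164) and Fcgr1 (−1.30, adjusted p = 0.0115), against 0.0824% of all genes. None was called higher, against 0.033% of all genes. At unadjusted limma p-values under 0.05, 9 were lower and 0 higher, against 2331 and 1528 of all 18193 genes. The log2 of the summed microglial level was 12.18 to 12.55 in untreated Ifnb+/+ and 11.80 to 11.95 in untreated Ifnb-/-. With rIFN-β it was 11.42 to 11.80 in Ifnb+/+ and 11.40 to 11.58 in Ifnb-/-. Of the 24 markers, 6 were below the array median on all 12 arrays (Cx3cr1, Gpr34, Itgam, P2ry12, P2ry13 and Siglech) and the other 18 were not, among them Cd68, C1qb and Laptm5, which read 9.03, 8.62 and 8.31 in untreated Ifnb+/+. With rIFN-β, 8 of the 24 markers fell and none rose in Ifnb+/+, against 1.36% and 1.78% of all genes, and 1 fell and 1 rose in Ifnb-/-, against 0.742% and 0.929%. The part of microglia or endothelial cells in the genotype differences of Ifi27l2a, Lgals3bp and Cmtr1 was not tested.

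Summed levels of 13 granule neuron markers were 14.21 to 14.36 in untreated Ifnb+/+ and 14.55 to 14.67 in untreated Ifnb-/-, higher in the genotype in which Ifi27l2a, Lgals3bp and Cmtr1 were lower. With rIFN-β they were 14.37 to 14.50 in Ifnb+/+ and 14.39 to 14.46 in Ifnb-/-, where the genotypes overlapped. The 3 genes did not overlap there, which was a condition of their choice. The part of granule neurons in their genotype differences was not tested.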

How the data were processed

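RNA of 12 CGN cultures was hybridized to Affymetrix 430 2.0 arrays. Per the study's methods, the authors used Arraystar 3 for quantile normalization and RMA, and the deposited values are log2 intensities of 45037 probe sets, which were not normalized again. RMA draws low values together. Each gene was read from its brightest probe set naming 1 gene (34945 such sets, 18193 genes), while sets naming several genes (932) or none (9160) were left out.

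Groups were compared with limma 3.58.1 (R 4.3.3) in a model of 4 group means (8 residual degrees of freedom), with Benjamini-Hochberg adjustment over all genes and calls at an adjusted p under 0.05. The number of arrays limits the precision. The fit was tested on simulated data in which all groups of a gene had the same SD. That test does not cover the unequal spread of the real groups. Members and lists (160 of 167 list genes measured) were chosen with earlier results of these data known. Other genes named had the smallest adjusted p for rIFN-β in Ifnb+/+ (4 per list) or were the 5 most correlated with each gene. From the 2 interferon lists alone, genes that met the genotype condition or came closest were also named. Fcgr1, Uba7 and the dim microglial markers were named after their values were seen. Coordinates and promoters (for 2 of the 3 genes) are from RefSeq (GRCm38.p6). Alternatives changed probe sets, filter, normalization, variance model, samples, block, test and arrays.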

Additional observations from a re-analysis of the deposited data

Results flagged for a closer look

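Trem2, a microglial receptor gene, responded to rIFN-β differently in the genotypes, by a difference of 1.73 on the log2 scale between the effect in Ifnb-/- (0.23) and that in Ifnb+/+ (−1.50; limma interaction, adjusted p = 0.012). Lgals1, a galectin gene, had an effect of −0.56 in Ifnb+/+ and 0.34 in Ifnb-/-, with every treated array on opposite sides of the untreated ones in the genotypes, and the difference of 0.906 did not pass the interaction test (limma adjusted p = 0.323). Mab21l1, a granule neuron marker, had an effect of 0.30 in Ifnb+/+ and −0.35 in Ifnb-/-, again in opposite directions, and its difference of −0.654 did not pass either (limma adjusted p = 0.323). In the other probe set of Mab21l1 the effects were 0.098 and −0.66, and treated and untreated Ifnb+/+ arrays overlapped.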

How the results depend on the processing

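The rIFN-β effect on Ifi27l2a was not called under any setting run, and lay between −0.08 and 0.19 in Ifnb+/+ (adjusted p 0.307 to 0.922) and between 0.09 and 0.16 in Ifnb-/- (adjusted p 0.342 to 0.839). Its sign turned in Ifnb+/+ with array weights (0.19), and without single arrays it ranged from −0.16 to 0.048 in Ifnb+/+, turning without Ifnb+/+ replicate 2, and from −0.031 to 0.24 in Ifnb-/-, turning without Ifnb-/- replicate 2 (−0.000158) or treated Ifnb-/- replicate 3. Leaving out each array in turn gave 1.24 to 1.77 for Lgals3bp and 0.60 to 0.99 for Cmtr1 in Ifnb+/+, and 1.11 to 1.22 and 0.40 to 0.48 in Ifnb-/-.

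The calls of Lgals3bp (1.47) and Cmtr1 (0.83) in Ifnb+/+ were lost when only the compared groups were fitted (adjusted p = 0.077 and 0.233) and in the methods' t-test after Benjamini-Hochberg (adjusted p = 0.494 and 0.612), which called 0 genes higher and 0 lower in Ifnb+/+, against 617 and 852 at its unadjusted threshold and 324 and 247 with limma. In Ifnb-/- that test called 2287 higher and 1666 lower at its unadjusted threshold. Cmtr1 in Ifnb-/- passed with array weights (0.44, adjusted p = 0.00686), with only the compared groups (0.43, adjusted p = 0.0295) and in the methods' unadjusted test (0.43). Array weights, whose iteration stopped before it converged, called 2440 genes higher and 3171 lower in Ifnb+/+ and 3298 and 1819 in Ifnb-/-, and the compared groups alone 99 and 32 in Ifnb+/+ and 645 and 631 in Ifnb-/-. The cause was not tested.

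Same-numbered arrays deviated together, at r above 0.1, in 4 of 12 pairs (r of −0.501 to 0.432). Both extremes came from treated arrays of different genotypes. Within a genotype, treated and untreated arrays of the same number had r of 0.051 to 0.298. Whether the numbers pair the cultures thus stayed undecided, and the main fit did not pair them. With the replicate number as a block, 376 genes were called lower in Ifnb+/+, Lgals3bp in Ifnb-/- had an adjusted p of 0.0307, and no call of Ifi27l2a, Lgals3bp or Cmtr1 changed.

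Without single arrays, 165 to 1307 genes were called higher and 76 to 1598 lower in Ifnb+/+ (lowest without Ifnb+/+ replicate 3, highest without Ifnb+/+ replicate 2), and 63 to 342 higher and 19 to 363 lower in Ifnb-/- (highest without Ifnb+/+ replicate 1). The 166 genes below in both settings became 105 once genes with a mean under 5 were left out, and 184 to 430 without single arrays, an alternative chosen after seeing the data. The directions of these changes were fixed in advance. The filter could only keep or lower the count, and leaving out an array could only keep or raise it. Genotype differences of the 3 genes kept their sign under every setting run, the smallest being −0.34 for untreated Cmtr1 with the mean of its probe sets. The filter on dim genes gave no value for Ifi27l2a, whose mean lies under it.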
